A study of Rattus norvegicus with 170 samples.

Results

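The receptors through which insulin, insulin-like growth factors, prolactin, growth hormone, epidermal growth factor and hepatocyte growth factor act, with their nearest intracellular partners, were examined in single cells of rat pancreatic islets. The group held 10 genes of the 24113 in the table, found by their symbols and not through a threshold on any value: the receptors *Insr*, *Igf1r*, *Prlr*, *Ghr*, *Egfr* and *Met*, the receptor substrates *Irs1* and *Irs2*, and the transcription factors *Stat5a* and *Stat5b*. All 10 were present in the table. Whole, hand-picked islets of wild type male Sprague Dawley rats aged 8 weeks were cultured for 48 h in RPMI1640 (5.5 mM glucose, 10% FBS) together with the vehicle, DMSO at 0.1%, or with 3 μM GNF4877, an aminopyrazine that inhibits the kinases DYRK1A and GSK3B and was made as a β-cell mitogen. The islets were then dispersed, and single cells were captured and their cDNA made on Fluidigm C1 chips, which gave 86 DMSO and 84 GNF4877 cells. Neither the labels nor the methods name the animal or culture of a cell, so that each treatment was 1 sample. A plate of libraries was sequenced per lane, and treatment cannot be told apart from chip or lane. Cells were not treated as replicates, no test was run and no p-value is given. Intervals are exact at 95% (Clopper-Pearson for shares of cells, Poisson for reads) and cover counting error only.

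β-cells carry receptors for several circulating growth signals. Insulin and IGF1 bind the tyrosine kinases encoded by *Insr* and *Igf1r*, which recruit the docking proteins IRS1 and IRS2 and, through them, PI3 kinase and AKT, and mice without *Irs2* develop diabetes through a failure of β-cell mass. Prolactin, placental lactogen and growth hormone bind cytokine receptors without a kinase of their own (*Prlr*, *Ghr*), which signal through JAK2 to STAT5. *Prlr* is known for the expansion of β-cells in pregnancy. EGFR and MET are tyrosine kinases that feed the RAS and MAP kinase cascade.

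The deposited values are in RPM, a transcript's reads per 1000000 reads mapped in that cell, and are not divided by transcript length, so levels were compared between cells for the same gene and not between genes. The term Ins1-high is used for a cell that held at least 1000 RPM of *Ins1*, of which DMSO had 78 and GNF4877 59. Cells with *Gcg* of 1000 RPM or more and *Ins1* below that level, here called α-cells, numbered 5 and 18. Of a list of 10 β-cell markers, 9 were in the table. *Slc2a2*, the β-cell glucose transporter, had medians of 445 and 1274 RPM in Ins1-high cells and of 6.24 and 8.08 RPM in α-cells. *Pdx1* was read in 67 and 40 Ins1-high cells, but *Mafa*, a factor of mature β-cells, in 5 and 0. *Irx2*, one of the listed α-cell markers, was read in 2 of 5 DMSO and 10 of 18 GNF4877 α-cells, and in 17 of 78 and 0 of 59 Ins1-high cells. Mapped reads per Ins1-high cell were 1235720 for DMSO and 1424570 for GNF4877 at the median. The median number of genes read per cell was 8938 and 7031, and 6621 and 4918.5 after each cell was thinned to 100000 reads, so fewer genes were read in a GNF4877 cell at equal depth as well. A second hormone (at least 1000 RPM of *Gcg*, of *Sst* or of *Ppy*) was present in 25 of the 78 DMSO and 4 of the 59 GNF4877 Ins1-high cells. Each port had been inspected for a single cell before lysis, and doublets were not removed here. Counts of genes past 2-fold between the treatments are given with and without these cells.

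The promoters of *Prlr* and *Ghr* are shown because these receptors signal through STAT5, and *Ghr* differed with treatment and with *Ccnb1* in the values below. The 250 bases before each start site listed by RefSeq on assembly GRCr8 are given 5′ to 3′ on the strand of the gene, *Prlr* at chr2:60861515-60861764 (plus strand, start site 1) and chr2:60909409-60909658 (plus strand, start site 2) and *Ghr* at chr2:54432076-54432325 (minus strand), in lower case, with any match to the STAT motif TTCNNNGAA, which reads the same on both strands, in capitals.
Prlr start site 1: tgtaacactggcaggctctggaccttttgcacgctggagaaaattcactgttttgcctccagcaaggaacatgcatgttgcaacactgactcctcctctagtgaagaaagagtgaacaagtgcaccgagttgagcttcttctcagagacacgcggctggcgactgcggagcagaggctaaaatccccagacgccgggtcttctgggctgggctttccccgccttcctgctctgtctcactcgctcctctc
Prlr start site 2: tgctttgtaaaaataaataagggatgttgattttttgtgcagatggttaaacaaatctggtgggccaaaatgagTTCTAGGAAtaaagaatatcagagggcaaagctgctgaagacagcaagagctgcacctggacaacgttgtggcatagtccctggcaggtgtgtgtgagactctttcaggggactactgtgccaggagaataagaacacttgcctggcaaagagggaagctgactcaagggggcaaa
Ghr start site 1: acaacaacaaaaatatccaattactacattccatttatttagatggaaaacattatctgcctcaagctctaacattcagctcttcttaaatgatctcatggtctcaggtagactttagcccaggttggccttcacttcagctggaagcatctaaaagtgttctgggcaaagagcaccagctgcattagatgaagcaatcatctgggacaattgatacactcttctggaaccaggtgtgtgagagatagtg
The motif occurred in these 3 windows once, in *Prlr* start site 2, with its first base 176 bases before the start. Of all 33469 windows of this length in the table, 7.67% held it. It was not found in the windows of *Insr*, *Igf1r*, *Irs1*, *Egfr*, *Met*, *Stat5a* or *Stat5b*, and *Irs2* has no entry.

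In Ins1-high cells, the clearest differences between the treatments were in *Irs2* and *Ghr*, which had lower means in GNF4877 cells and were read in fewer of them at either depth. With all reads, *Igf1r* was read in nearly all cells of both treatments, but at 100000 reads per cell in 79.3% of GNF4877 and 97.4% of DMSO cells. On the scale log2((mean RPM + 1)/(mean RPM + 1)), GNF4877 over DMSO, 4 of the 10 genes were at least 2-fold lower (*Insr*, *Irs1*, *Irs2* and *Ghr*), against 18.5% of the 13973 genes with a mean of 1 RPM or more in either group. The 2 genes that were at least 2-fold higher were *Egfr* and *Stat5a*, against 10.2% of all genes. The median of all genes was -0.11. The shares of cells with a read had intervals that did not overlap, with the lower share in GNF4877, for 4 genes (*Insr*, *Irs2*, *Prlr* and *Ghr*), against 16.7% of genes, and for 3 at 100000 reads per cell (*Igf1r*, *Irs2* and *Ghr*), against 15.1%. *Irs2* and *Ghr* were in both sets. None of the 10 had a higher share with intervals apart, against 0.644% of all genes, and 0.528% at 100000 reads per cell.

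**Figure D1:**
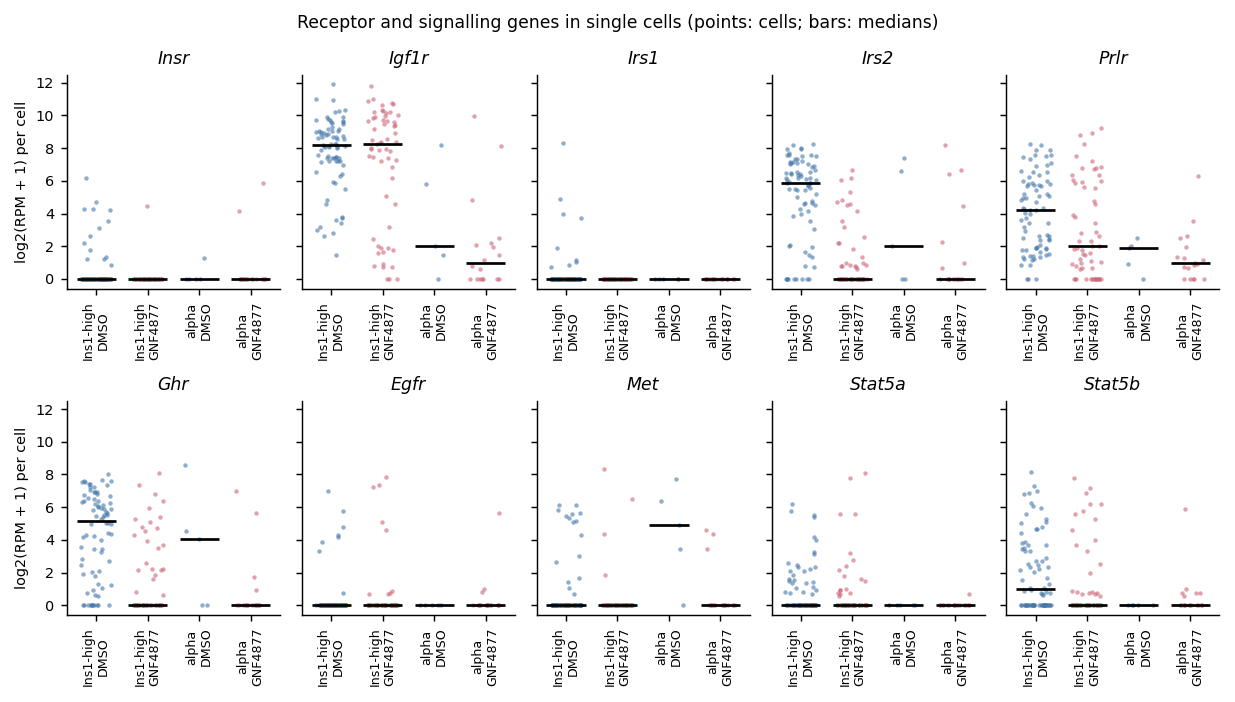
Each point is 1 cell, with log2(RPM + 1) of the gene on the y axis, in Ins1-high and α-cells (alpha) of each treatment, and each bar is the median. The median of *Irs2* was 57.3 RPM in Ins1-high DMSO cells and 0 in Ins1-high GNF4877 cells, that of *Ghr* 34.98 and 0, and that of *Igf1r* 286 and 298 RPM.

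*Igf1r*, the receptor of IGF1 and IGF2, was read in 78 of 78 Ins1-high DMSO cells, from 1.77 to 3834 RPM with a median of 286 RPM. In the Ins1-high GNF4877 cells it was read in 56 of 59, from 0 to 3490 RPM with a median of 298 RPM. The medians were close, but the GNF4877 cells spread more widely, with a lower quartile of 15.6 RPM and an upper quartile of 873 RPM against 146 and 536 RPM in DMSO. The mean was 558 RPM in GNF4877 and 448 RPM in DMSO, a log2 ratio of 0.32, and it stayed between 0.18 and 0.46 when any single cell was left out, while the mean of log2(RPM + 1) per cell gave a difference of -0.78. At 100000 reads per cell the share of cells with a read was 79.3% (66.6% to 88.8%) in GNF4877 and 97.4% (90.8% to 99.7%) in DMSO. The ratio of means was thus above 1 in GNF4877 while more of its cells had no *Igf1r* read at equal depth.

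*Insr*, the insulin receptor, was read in few cells of either treatment. Reads were found in 14 of the 78 Ins1-high DMSO cells (17.9%, 10.2% to 28.3%), with 216 reads in all (188 to 247) and a highest value of 71.3 RPM. In GNF4877 it was read in 1 of 59 cells (1.69%, 0.0429% to 9.09%), which held all 36 reads (25.2 to 49.8). The means were 2.38 and 0.363 RPM, a log2 ratio of -1.31. It was less than 2-fold without 1 DMSO cell (-0.87), with any *Ins1* above 0 as the limit (-0.58) and by the mean of log2(RPM + 1) per cell (-0.46). The intervals of the shares overlapped at 100000 reads per cell, at which 8 of 76 and 1 of 58 cells had a read. All 14 DMSO cells with *Insr* also had *Igf1r*, as every DMSO cell did.

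*Irs2*, the docking protein read in most DMSO cells, had the lowest log2 ratio of the 10 genes at a pseudocount of 1 RPM, and 0.651% of the genes tested lay below it. At 0.1 RPM *Irs1* was lower (-5.61 against -3.39). It was read in 69 of the 78 Ins1-high DMSO cells (88.5%, 79.2% to 94.6%), with a lowest value of 0, a median of 57.3 and a highest value of 298 RPM. The GNF4877 cells with *Irs2* numbered 25 of 59 (42.4%, 29.6% to 55.9%), with a lowest value and a median of 0 and a highest value of 101 RPM. The cells of the treatments overlapped in range, but 60 DMSO and 10 GNF4877 cells held 10 RPM or more. The mean was 77.4 RPM (6876 reads, 6714 to 7040) in DMSO and 7.28 RPM (596 reads, 549 to 646) in GNF4877, 10.6-fold lower, or -3.24 on the log2 scale. Leaving out any 1 cell gave -3.56 to -3.19. At 100000 reads per cell it was read in 57 of 76 DMSO cells (63.7% to 84.2%) and 15 of 58 GNF4877 cells (25.9%, 15.3% to 39.04%). Without the cells that held a second hormone the means were 71.98 and 7.73 RPM.

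*Irs1*, the other main docking protein of the insulin receptor, was read in 9 Ins1-high DMSO cells and in 0 of the 59 GNF4877 cells, which allows a share of up to 6.06%. A single DMSO cell with 312 RPM held 83.5% of the sum, and the DMSO mean was 4.79 RPM with it and 0.801 RPM without it. With that cell, the DMSO mean was 129.9 times a floor of 3 reads over the GNF4877 cells (0.0369 RPM). This is not a lower limit of the fold change, since most of the DMSO sum came from that 1 cell. The log2 ratio of -2.53 was -0.85 without the cell, which is less than 2-fold, and the intervals of the shares overlapped. Neither docking protein had a read in 8 of the 78 DMSO and 34 of the 59 GNF4877 cells, or in 18 of 76 and 43 of 58 at 100000 reads per cell.

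*Ghr*, the growth hormone receptor, was lower in GNF4877 by 3.54-fold in mean. It was read in 67 of the 78 Ins1-high DMSO cells (85.9%, 76.2% to 92.7%), from 0 to 259 RPM with a median of 34.98 RPM. The GNF4877 cells with a read numbered 24 of 59 (40.7%, 28.1% to 54.3%), from 0 to 269 RPM with a median of 0. Levels of 10 RPM or more were found in 50 DMSO and 15 GNF4877 cells. Among the cells with a read the medians were 48.96 and 16.5 RPM, so the level in these cells was lower as well as their number, and the GNF4877 cell of 269 RPM held 28.3% of the sum. The means were 57.1 RPM (5327 reads, 5185 to 5472) and 16.1 RPM (1459 reads, 1385 to 1536), a log2 ratio of -1.76 that stayed between -2.19 and -1.70 without any 1 cell. The shares at 100000 reads per cell were 68.4% (56.7% to 78.6%) and 24.1% (13.9% to 37.2%).

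*Prlr*, the prolactin receptor, had similar means and unlike distributions. In Ins1-high DMSO cells it was read in 75 of 78 (96.2%, 89.2% to 99.2%), from 0 to 301 RPM with a median of 17.3 RPM. In Ins1-high GNF4877 cells it was read in 45 of 59 (76.3%, 63.4% to 86.4%), from 0 to 593 RPM with a median of 3.02 RPM. The mean was 54.7 RPM in GNF4877 and 48.9 RPM in DMSO, a log2 ratio of 0.16 that changed sign without single cells (-0.10 to 0.26), while the mean of log2(RPM + 1) per cell gave a difference of -1.02. Levels of 10 RPM or more were found in 44 DMSO and 22 GNF4877 cells. At 100000 reads per cell the shares of 68.4% and 50.0% had intervals that overlapped (56.7% to 78.6% and 36.6% to 63.4%). The table holds *Prlr* as 2 RefSeq rows. NM_012630.2 was read in 75 DMSO and 43 GNF4877 cells and NM_001034111.1 in 55 and 29, and 20 DMSO and 16 GNF4877 cells had reads on the former alone. Reads of a sequence shared by both rows may have been assigned to either.

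**Figure D2:**
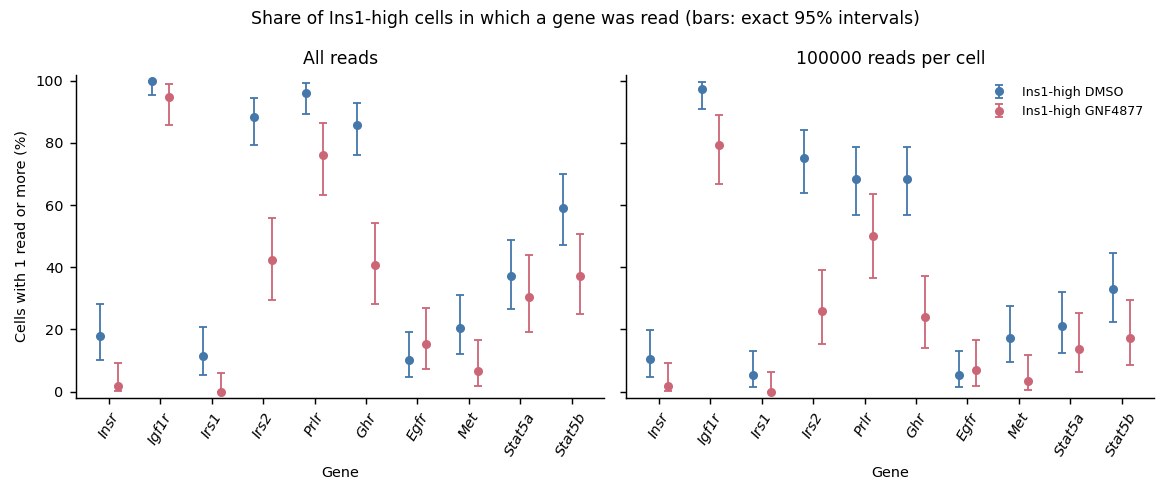
Points give the percentage of Ins1-high cells with 1 read or more of each gene, with exact 95% intervals as bars, for DMSO and GNF4877 cells, at all reads (left) and at 100000 reads per cell (right). The intervals of *Irs2* and *Ghr* stayed apart in both panels, with 57 of 76 and 15 of 58 cells for *Irs2* at 100000 reads.

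*Egfr*, the epidermal growth factor receptor, was read in 8 of the 78 Ins1-high DMSO and 9 of the 59 GNF4877 cells (10.3%, 4.53% to 19.2%, and 15.3%, 7.22% to 26.99%). The shares overlapped, and the higher mean in GNF4877 (10.1 against 3.40 RPM, a log2 ratio of 1.34) came mostly from 3 cells of 226, 160 and 152 RPM. In DMSO the highest cell held 125 RPM, which was 47.3% of the sum. Leaving out any 1 cell gave log2 ratios from 0.75 to 1.98, and leaving out the cells with a second hormone gave 1.91 (10.9 and 2.15 RPM). A DMSO cell with 18.7 RPM also held 8539 RPM summed over 9 mesenchymal markers.

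*Met*, the receptor of hepatocyte growth factor, was found among Ins1-high DMSO cells almost only in those with a second hormone. It was read in 15 of the 25 Ins1-high DMSO cells with a second hormone (60.0%, 38.7% to 78.9%) and in 1 of the 53 without one (1.89%, 0.0478% to 10.1%), and these intervals did not overlap. At 100000 reads per cell the counts were 12 of 25 and 1 of 51. All 15 cells had *Gcg* of 1000 RPM or more. In the 5 DMSO α-cells *Met* was at 0, 9.73, 29.6, 82.9 and 207 RPM, so 4 of the 5 held it. The 4 Ins1-high GNF4877 cells with *Met* had no second hormone, and a cell of 324 RPM held 74.2% of their sum. The means of all Ins1-high cells, 7.40 RPM in GNF4877 and 6.07 RPM in DMSO, gave a log2 ratio of 0.25, which became -1.26 without the GNF4877 cell of 324 RPM and 3.03 when cells with a second hormone were left out of both treatments. With these cells left out, the same 4 genes were 2-fold lower and *Met* joined *Egfr* and *Stat5a* as 2-fold higher, against 18.6% and 11.8% of all genes, and the shares of *Irs2* and *Ghr* remained apart, against 10.8%, while those of *Insr* and *Prlr* overlapped.

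**Figure D3:**
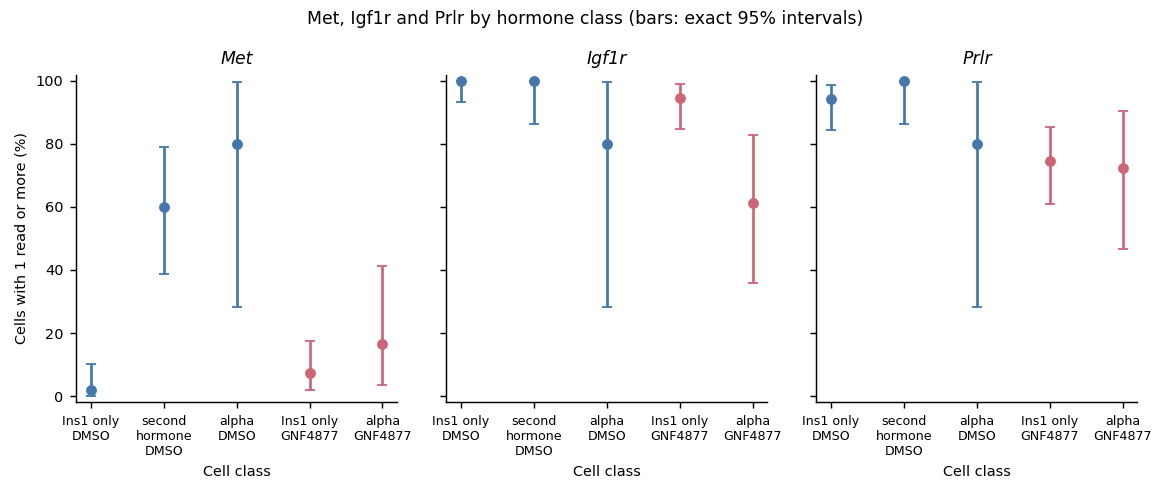
The percentage of cells with 1 read or more of *Met*, *Igf1r* and *Prlr* is shown by cell class, with exact 95% intervals as bars, for Ins1-high cells without a second hormone (Ins1 only), Ins1-high DMSO cells with one, and α-cells. *Met* was read in 1.89% of DMSO cells with *Ins1* only, 60.0% of those with a second hormone and 4 of the 5 DMSO α-cells.

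*Stat5a* and *Stat5b* encode closely related transcription factors activated below *Prlr* and *Ghr*, and reads from sequence that they share may have been placed on either. *Stat5b* was read in 46 of the 78 Ins1-high DMSO cells (58.97%, 47.3% to 70.0%), from 0 to 283 RPM with a median of 0.967 RPM. Among the GNF4877 cells 22 of 59 had a read (37.3%, 25.04% to 50.9%), from 0 to 218 RPM with a median of 0. These shares overlapped, and the means of 17.7 and 14.1 RPM gave a log2 ratio of -0.31. *Stat5a* was read in 29 DMSO cells (37.2%, 26.5% to 48.9%) and 18 GNF4877 cells (30.5%, 19.2% to 43.9%), with medians of 0. Its mean of 10.5 RPM in GNF4877 against 3.90 RPM in DMSO, a log2 ratio of 1.23, rested on cells of 269 and 223 RPM, and leaving out the former gave 0.53, which is less than 2-fold. Levels of 10 RPM or more of *Stat5a* were found in 6 DMSO and 4 GNF4877 cells. Of the 50 DMSO cells with either factor 25 had both, and of the 28 GNF4877 cells 12 had both.

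The genes were also counted together within each cell. A median of 5 of the 10 genes was read per Ins1-high DMSO cell (2 to 9) and of 3 per Ins1-high GNF4877 cell (0 to 7), and the medians were 4 and 2 at 100000 reads per cell. *Prlr* and *Ghr* were read together in 65 of 78 DMSO and 22 of 59 GNF4877 cells, and at 100000 reads in 39 of 76 and 8 of 58. *Prlr* with either STAT5 gene was read in 48 DMSO and 23 GNF4877 cells. The set of *Igf1r*, *Irs2*, *Prlr* and *Ghr* was read whole in 60 DMSO and 14 GNF4877 cells, or in 30 of 76 and 1 of 58 at 100000 reads. The number of genes read per cell was lower in GNF4877 over the whole table too, as given above, and its part in these counts was not tested.

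**Figure D4:**
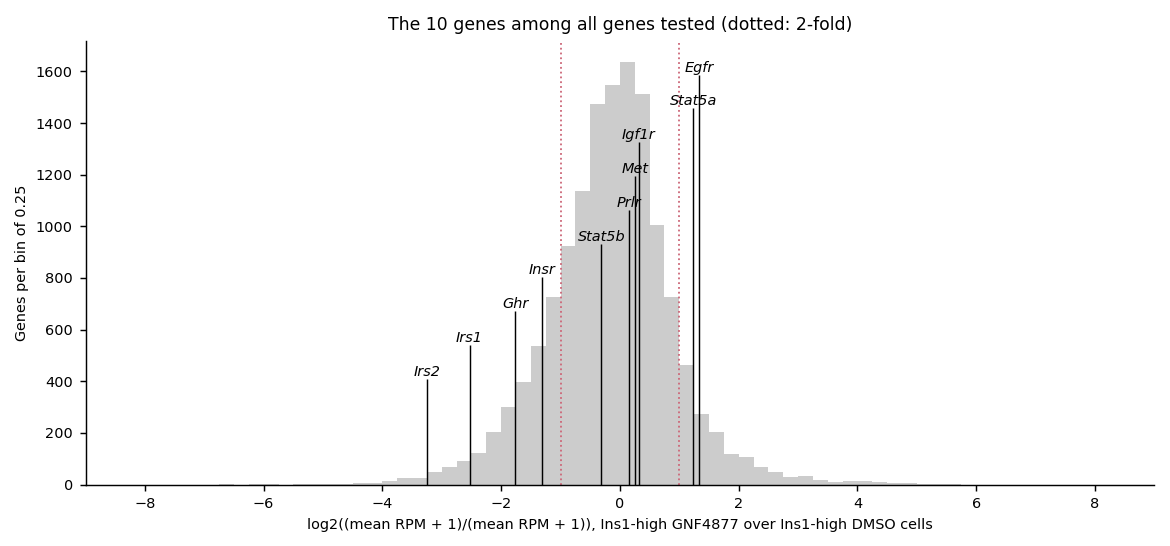
The grey histogram counts all 13973 genes tested by their log2 ratio of means, Ins1-high GNF4877 over Ins1-high DMSO cells, in bins of 0.25, and the vertical lines mark the 10 genes at heights that only separate the labels. *Irs2* at -3.24 lay in the lower tail, *Prlr*, *Met*, *Igf1r* and *Stat5b* lay within 2-fold, and *Irs1* has no read in GNF4877, so that its place depends on the pseudocount.

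Cyclin B1 (*Ccnb1*), which accumulates in the G2 and M phases, was used to divide the Ins1-high GNF4877 cells into 11 with 10 RPM or more and 48 below, all from 1 sample. The 48 cells were not all free of cell cycle genes. Among them *Top2a* was read in 37 (up to 1075 RPM) and *Mki67* in 24 (up to 793 RPM). Their medians were 1.30 and 0.239 RPM, against 630 and 205 RPM in the 11 cells. Of the 10 genes, only *Ghr* had shares with intervals that did not overlap between these groups of cells. Among the 11 cells it was at 0 in 2 cells, at 3.38 and 3.44 RPM in another pair, and from 22.6 to 164 RPM in the other 7. It was read in 9 of the 11 (81.8%, 48.2% to 97.7%) and in 15 of the 48 (31.3%, 18.7% to 46.3%), and the intervals did not overlap, nor did those at 100000 reads per cell (7 of 11, 30.8% to 89.1%, and 7 of 47, 6.20% to 28.3%). Such a higher share was found for 0.955% of all genes, and for 0.909% at 100000 reads. The mean was 44.5 RPM in the 11 cells and 9.60 RPM in the 48, 4.64-fold higher, although a cell of the 48 held 269 RPM. The log2 ratio was 2.10, or 3.16 without that cell, and 1.19 when any *Ccnb1* read was the limit. Beside 57.1 RPM and 85.9% of cells in DMSO, the level in the 11 cells was near that of the vehicle cells, and in the 48 cells the log2 ratio over DMSO was -2.45. The 11 cells also held more *Ins1* (a median of 36796 against 18710 RPM) and had more genes read at 100000 reads per cell (medians of 5264 and 4824), and the part of these in the *Ghr* values was not tested.

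**Figure D5:**
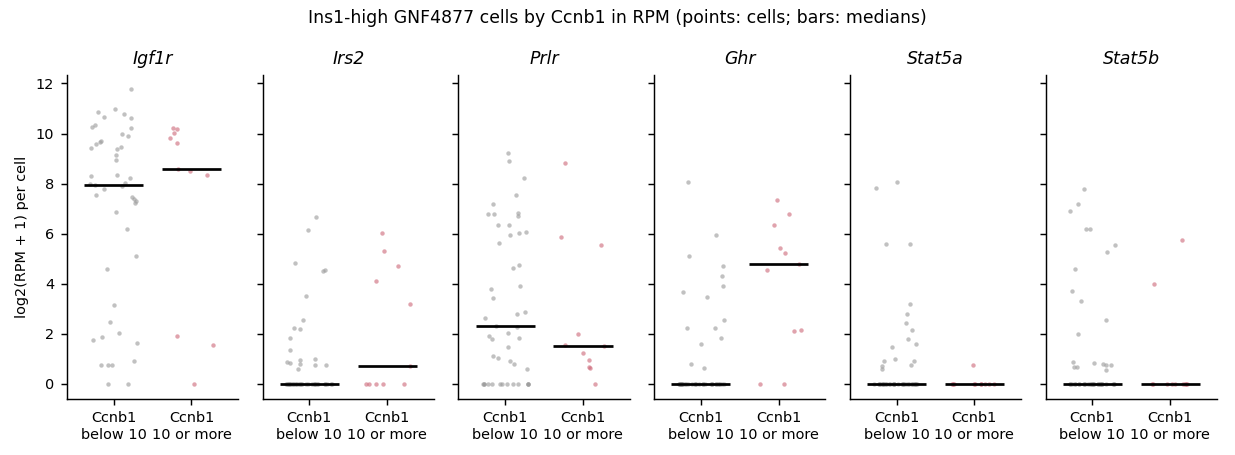
Each point is an Ins1-high GNF4877 cell, with log2(RPM + 1) on the y axis, for cells with *Ccnb1* below 10 RPM (48 cells) and of 10 RPM or more (11 cells), and each bar is the median. The median of *Ghr* was 0 below and 26.9 RPM at or above that level, and *Igf1r* had medians of 247 and 379 RPM.

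On the 2-fold scale, 3 genes were higher in the 11 cells with *Ccnb1* (*Insr*, *Irs2* and *Ghr*), against 16.9% of all genes, and 3 were lower (*Egfr*, *Stat5a* and *Stat5b*), against 25.5%. *Irs2* was read in 6 of the 11 and 19 of the 48 cells, and its mean was 2.44-fold higher in the 11 than the 5.74 RPM of the 48. The log2 ratio of 1.15 was below 1 without 1 cell (0.57), at 100000 reads per cell (0.70), with *Ins1* of 10000 RPM or more (0.86) and with any *Ccnb1* read (0.84). Both means were below the 77.4 RPM of DMSO, and the intervals of its shares overlapped (23.4% to 83.3% and 25.8% to 54.7%). *Igf1r* differed little, with means of 561 and 557 RPM and reads in 10 of 11 and 46 of 48 cells. *Prlr* was read in 10 of the 11 cells, in 7 of them below 10 RPM, and a cell of 452 RPM made up 79.9% of their sum. The means of *Prlr* were 51.4 and 55.5 RPM, and without that cell the former was 11.3 RPM. *Stat5a* was read in 1 of the 11 cells, with 1 read, and in 17 of the 48 (35.4%, 22.2% to 50.5%), and *Stat5b* in 2 and 20, with a log2 ratio of -1.25 that was -0.83 without 1 cell. The interval for 1 of 11 (0.230% to 41.3%) overlapped that of the 48 cells, so that a difference in *Stat5a* was not detectable with this number of cells. *Insr* came from a single cell of 21.4 RPM, *Met* was read in 1 and 3 cells and *Egfr* in 3 cells of 1 read each against 6 cells. The lone Ins1-high DMSO cell with *Ccnb1* of 10 RPM or more held 31.7 RPM of *Ghr*, 66.1 RPM of *Irs2* and 271 RPM of *Igf1r*, and 12382 RPM over the mesenchymal markers.

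In α-cells, *Igf1r* and *Prlr* were lower than in Ins1-high cells of the same treatment. Of the 18 GNF4877 α-cells, 2 also held at least 1000 RPM of *Ppy*, and 1 held 2310 RPM over the mesenchymal markers. A DMSO α-cell held 1672 RPM of *Sst*. These cells were kept, and their part in the α-cell values was not tested. *Igf1r* was read in 11 of the 18 GNF4877 α-cells (61.1%, 35.7% to 82.7%), with a median of 0.949 RPM and a mean of 74.4 RPM, of which 1 cell of 1015 RPM made up 75.8%. Its share was below that of the Ins1-high GNF4877 cells (94.9%, 85.9% to 98.9%) without overlap of the intervals, as for 1.72% of all genes, and the mean was 7.50-fold lower. *Prlr* was read in 13 of the 18 α-cells, but with a median of 0.949 RPM, and reached 10 RPM in 2 of them. At 100000 reads per cell, 2 of 18 α-cells (11.1%, 1.38% to 34.7%) and 29 of 58 Ins1-high cells (50.0%, 36.6% to 63.4%) had a *Prlr* read, and these intervals did not overlap, as for 2.60% of all genes. The means of *Prlr* were 6.04 and 54.7 RPM, 9.06-fold lower. In the 5 DMSO α-cells *Prlr* was at 0, 0.871, 2.78, 3.12 and 4.69 RPM, below the median of 17.3 RPM of the Ins1-high DMSO cells in every one. *Igf1r* in these 5 cells was at 0, 1.74, 2.96, 55.6 and 291 RPM.

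By means, 6 genes were at least 2-fold lower in GNF4877 α-cells than in Ins1-high GNF4877 cells (*Igf1r*, *Prlr*, *Egfr*, *Met*, *Stat5a* and *Stat5b*), against 34.5% of all genes, and 2 were higher (*Insr* and *Irs2*), against 13.9%. *Irs2* was read in 7 of 18 α-cells (38.9%, 17.3% to 64.3%) and 25 of 59 Ins1-high cells, and its higher mean of 27.9 RPM against 7.28 RPM included a cell of 289 RPM, without which it was 12.5 RPM and the log2 ratio 0.71, less than 2-fold. *Insr* was likewise at 0.55 and *Egfr* at -0.96 without 1 cell. *Stat5a* was read in 1 and *Stat5b* in 6 of the 18 GNF4877 α-cells, 5 of these 6 with 1 read. In the 5 DMSO α-cells both were at 0, as were *Irs1* and *Egfr*, which allows a share of up to 52.2%. *Irs1* was also at 0 in all 18 GNF4877 α-cells. *Ghr* was read in 4 of the 18 and 3 of the 5 α-cells, *Met* in 3 of the 18 and 4 of the 5 (3.58% to 41.4% and 28.4% to 99.5%, which overlap), and *Insr* in 2 and 1.

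The pathway around the receptors was followed with lists of genes, compared between Ins1-high GNF4877 and Ins1-high DMSO cells. Of 14 ligands 4 could be tested (mean of 1 RPM or more in either group), and none of the 4 was 2-fold higher or lower. *Igf2*, a ligand of *Igf1r*, was read in 37 of 59 and 63 of 78 cells with means of 31.03 and 57.9 RPM, a log2 ratio of -0.88, while *Prl*, *Gh1* and *Hgf* had no read in any of these cells. Other growth factor and cytokine receptors had the lowest median, -1.90 over 10 genes tested, with 6 genes 2-fold lower and 1 higher, beside 18.5% and 10.2% of all genes. The summed mesenchymal markers, which include *Pdgfra* and *Pdgfrb* of this list, reached 1000 RPM in 2 Ins1-high DMSO cells (up to 12382 RPM) and in 0 GNF4877 cells (up to 5.14 RPM), and the part of these cells was not tested. Among the receptors *Kit*, the stem cell factor receptor, had means of 3.41 RPM in GNF4877 and 27.7 RPM in DMSO and was read in 7 of 59 and 55 of 78 cells. *Pdgfrb* (0.0341 and 23.9 RPM) took 65.5% of its DMSO sum from a single cell. *Fgfr1* was read in 0 GNF4877 and 12 DMSO cells. IGF binding proteins gave 3 lower and 2 higher genes of 6, beside the same 18.5% and 10.2%, with *Igfbp4* at 10.3 and 40.1 RPM. The higher *Igfbp1* and *Igf2bp2*, an RNA-binding protein entered in the same list, were read in 4 and 5 GNF4877 cells and in 4 DMSO cells each.

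Downstream kinases and adaptors were lower more often than higher, as were the genes of the whole table. Of 19 PI3K, AKT and mTOR genes tested 6 were 2-fold lower and 1 higher (median -0.41), and of 17 RAS and MAP kinase genes 5 were lower and 0 higher (median -0.61), beside 18.5% and 10.2% of all genes. *Pik3r1*, the regulatory subunit of PI3 kinase that binds IRS proteins, was read in 4 of 59 GNF4877 and 29 of 78 DMSO cells, with means of 3.40 and 13.4 RPM. *Tsc1*, a brake on mTOR, had means of 4.71 and 18.9 RPM. *Sos2*, a RAS exchange factor, was read in 43 and 72 cells (10.6 and 35.2 RPM), *Gab1* had means of 12.9 and 31.2 RPM, and *Mapk3*, which encodes ERK1, 50.7 and 113 RPM. Of the receptor brakes 4 of 13 were lower and 0 higher (median -0.60), among them *Cblb* (0.837 and 7.89 RPM), *Lrig1* (3.05 and 14.8 RPM) and *Grb10*, read in 1 and 9 cells. The JAK, STAT and SOCS genes stayed near the background, with 1 lower and 1 higher of 14 (median -0.10). The lower gene was *Cish*, a feedback target of STAT5, read in 4 GNF4877 and 24 DMSO cells (1.79 and 9.92 RPM), and the higher was *Stat2* (56.5 and 27.2 RPM, read in 18 and 31 cells), with *Socs5* at 68.5 and 137 RPM just within 2-fold. Of 8 genes known to respond to lactogens in islets, 2 were lower and 1 higher (median 0.11). *Ccnd2*, cyclin D2, was read in 49 of 59 and 77 of 78 cells with means of 147 and 348 RPM, a log2 ratio of -1.24 that stayed between -1.32 and -1.19 without any 1 cell, *Cish* was the other lower gene, and *Tph2* was read in 1 GNF4877 cell and in 0 of the 78 DMSO cells.

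Without the cells that held a second hormone, beside 18.6% of all genes lower and 11.8% higher, several of these counts changed. Of 5 ligands tested 1 was lower (*Igf1*, of whose DMSO sum 1 cell held 96.9%) and 1 higher (*Egf*, of whose GNF4877 sum 1 cell held 79.04%). The JAK, STAT and SOCS genes gave 3 lower (*Stat6*, *Socs5* and *Cish*) and 0 higher of 14. The other receptors gave 5 lower and 0 higher of 8, the PI3K, AKT and mTOR genes 7 and 2 of 19, and the receptor brakes 5 and 1 of 13. The counts of the other lists (IGF binding proteins, RAS and MAP kinases, lactogen response genes) were the same.

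The same lists were read between GNF4877 cells with and without *Ccnb1* of 10 RPM or more. *Kit* was read in 3 of 11 and 4 of 48 cells and *Sos2* in 8 of 11 and 35 of 48, the latter with means of 38.7 and 4.15 RPM. *Igf2* was read in 9 of 11 and 28 of 48 cells with means of 36.04 and 29.9 RPM. *Igf2bp2*, *Cbl* and *Tph2* were each read in 1 of the 11 cells. In α-cells against Ins1-high cells of GNF4877, *Igf2* was lower (0.951 and 31.03 RPM), as were *Ccnd1* (16.5 and 112 RPM) and *Ccnd3* (0.206 and 22.7 RPM), D-type cyclins, which act in G1. Of the lactogen response genes 5 of 8 were 2-fold lower in α-cells, beside 34.5% of all genes. *Insrr*, the insulin receptor-related receptor, was higher there (236 and 67.8 RPM, read in 14 of 18 and 34 of 59 cells), as was *Jak1* (198 and 53.9 RPM), while *Jak2*, the kinase bound by *Prlr* and *Ghr*, was read in 1 of 18 and 11 of 59 cells.

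Across the 78 Ins1-high DMSO cells, the genes most like each of the members read in at least 50% of cells were sought among 8466 genes read as often, by Spearman's rho of log2(RPM + 1). These values describe cells of 1 sample, which share their library chemistry and differ in depth. *Prlr* was most like *Slc2a2* (rho 0.67), *Iapp*, the hormone amylin (0.59), and *Mvp* (0.59), and *Slc2a2* with *Prlr* gave 0.60 over the 59 GNF4877 cells. *Igf1r* was most like *Crem*, a cyclic AMP response factor (0.59), *Fyb* (0.57) and LOC366709 (0.55). *Ghr* had 1 gene at 0.5 or more, LOC690918 (0.52), and *Irs2* and *Stat5b* had 0. Among the members themselves *Prlr* with *Ghr* gave 0.45, *Prlr* with *Igf1r* 0.38 and *Ghr* with *Stat5b* 0.27, while *Irs2* stayed between 0.01 and 0.19 with the other 4.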

How the data were processed

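Single-cell RNA-seq libraries were made with SMARTer chemistry on Fluidigm C1 chips and Nextera XT, and sequenced as single 50 bp reads, for 86 DMSO and 84 GNF4877 cells. The submitters' processing notes name CASAVA 1.8.2, BWA 0.5.9 and SAMtools 0.1.19. The authors deposited RPM per transcript (27586 rows, 170 cells), scaled to mapped reads and not to length. According to the methods the reads were aligned to the mouse transcriptome, but the rows are rat RefSeq transcripts, and the build is not given in the sources used here. Cells with more than 100000 mapped reads had been kept. A value of 0.01 (69.7% of values) stood for no read and was set to 0. The step between values gave the reads of each cell, with 100% of values up to 20 reads within 0.1 of a whole read. Rows of a symbol were added up. No pair of cells held identical values.

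Groups came from the labels and, within them, from *Ins1*, *Gcg* and *Ccnb1*. No count model was run, since each treatment is 1 sample. Ratios of mean RPM are on the log2 scale after a pseudocount of 1 RPM was added to each mean, which understates changes of low genes, over genes with a mean of 1 RPM or more in either group. Thinning to 100000 reads on listed transcripts left out 3 cells of each treatment. A gene at 0 was set against 3 reads over the group. Reads are PCR copies without molecular identifiers, so intervals cover counting error only. The 10 genes are always named. Of each pathway list at most the 3 genes farthest from 0 were named, with *Prl*, *Gh1*, *Hgf* and the checks of cell identity added after their values were seen. Some genes that this rule names are not reported here. The 10 genes and the lists were chosen with earlier results of these data known. Pseudocount, scale, depth, *Ins1* and *Ccnb1* thresholds, transcript rows, filter, second hormones and single cells were varied. In simulated cells 94.5% of 200 genes changed 4-fold between Ins1-high GNF4877 and DMSO cells were recovered (of 13362 simulated), and 100% of the 158 with a mean of 5 RPM or more. The simulated cells differed only by Poisson counting at their own depth, with no other spread between cells. These rates therefore cannot tell how often a change would be recovered in real cells, whose values spread more widely. Promoters are from RefSeq on GRCr8, and 9 of the 10 genes had an entry. Scripts ran under Python 3.11.15 with scipy 1.17.1, pandas 2.3.3 and numpy 2.4.6, and figures were drawn with matplotlib 3.10.9.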

Additional observations from a re-analysis of the deposited data

Results flagged for a closer look

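Outside the Ins1-high and α-cells, 10 cells belonged to no comparison (3 DMSO and 7 GNF4877). GNF4877 cell 33 among them held 391 RPM of *Stat5b*, above the highest Ins1-high DMSO cell at 283 RPM, and 46.6 RPM of *Stat5a*. The cell held 30112 RPM of *Ppy*, the pancreatic polypeptide, and 116 RPM of *Ins1*. It was noted because its value lies in cells that the comparisons do not use and above the level in the vehicle cells. The DMSO cell among the 10 with *Ppy* above 1000 RPM (45021 RPM) held 20.5 RPM of *Stat5b* and 0 of *Stat5a*, and 5993 RPM over the mesenchymal markers, which were at 0 in GNF4877 cell 33.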

How the results depend on the processing

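No paired analysis was possible because the numbers in the sample names are cell numbers within 1 sample per treatment and pair no cells. Of the alternatives tried for single genes, 274 moved the log2 ratio by less than log2 of 1.5, 76 by more and 5 turned the sign of a gene past 2-fold. *Igf1r*, *Prlr* and *Met*, within 2-fold between the treatments, changed sign with the averaging of log2 values (-0.78, -1.02 and -0.48), and *Prlr* and *Met* also with either other limit on *Ins1* and without single cells. *Irs2* and *Ghr* were lower in Ins1-high GNF4877 cells under all of them. The count of genes past 2-fold between the treatments (6) was 2 with a pseudocount of 10 RPM and 3 when log2(RPM + 1) was averaged over cells (mean log2), which also moved the median of all genes to -0.45 and the calls to 1.72% higher and 23.6% lower. The count by *Ccnb1* (6) was 3, 2 and, with any *Ccnb1* read, 3. The count for α-cells (8) was 4 and 2. Leaving out single cells gave 5 to 7, 4 to 7 and 7 to 9. The count of shares apart (4) was 2 at 10 RPM or more, 2 without second hormones and 3 at 100000 reads per cell. With *Ins1* of 10000 RPM or more it was 5, as *Stat5b* joined. Signs turned for *Stat5a* between treatments (-0.085, mean log2) and by *Ccnb1* (0.27, any read), and for *Met* in α-cells (0.33, mean log2; 0.25, *Ins1* of 10000 RPM or more; -1.64 to 0.42 without single cells). List medians moved to -0.56 (pseudocount 10) and -0.56 (mean log2) for other receptors, -0.35 (pseudocount 10) for IGF binding proteins, and -1.34 and -0.75 (mean log2) for RAS and MAP kinases and for JAK, STAT and SOCS. Scaling to listed reads and leaving out cells with listed transcripts under 200000 RPM were added after seeing the data and moved none of the 3 counts by over 1.5 times. The causes were not tested. The means of *Insr*, *Irs1*, *Egfr*, *Met* and *Stat5a* rest on 1 to 3 cells in at least 1 treatment, and the part of depth in this was not tested.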

Other observations

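A GNF4877 cell with 35288 RPM of *Sst* (somatostatin) and 36.2 RPM of *Ins1* held 1460 RPM of *Ccnb1*, 171 RPM of *Igf1r*, 229 RPM of *Prlr* and 159 RPM of *Ghr*. A GNF4877 cell with 13395 RPM over the mesenchymal markers held 608 RPM of *Ccnb1*, 123 RPM of *Igf1r*, 8.68 RPM of *Irs1* and 18.4 RPM of *Egfr*. It was the only GNF4877 cell of all 84 with an *Irs1* read. Of the 7 GNF4877 cells outside the Ins1-high and α-cells, 2 besides cell 33 had *Ppy* above 1000 RPM (59533 and 70421 RPM). They held 40.3 and 0 RPM of *Stat5b*, and each had *Igf1r* below 2 RPM.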
